A study of Homo sapiens with 6 samples.

Results

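The checkpoint kinases and the CDC25-WEE1 axis were followed as 10 transcripts, CHEK1, CHEK2, ATM, ATR, CLSPN, CDC25A, CDC25B, CDC25C, WEE1 and PKMYT1, of the 60671 gene identifiers counted in each library. The genes were chosen by name for their place in the pathway, which holds named targets of the compound tested, and a threshold on their values was not used. RNA was sequenced from the human β cell line EndoC-βH1, labelled as wild type, with 3 samples given the vehicle DMSO and 3 given 1 µM AZD7762, a competitive inhibitor of CHEK1 and CHEK2. All 6 samples were starved for 1 h in 0.5 mM glucose and then stimulated for 1 h, and the vehicle or the inhibitor was present in both steps. How much glucose each library received during stimulation is not stated. EndoC-βH1 cells were established from human fetal pancreas with a viral large T antigen, a protein known to bind p53 and RB, so they divide in culture and every sample shares that background. The comparison of AZD7762 with DMSO asks which transcripts changed during this short exposure.

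Checkpoint kinases halt the cell cycle when DNA is damaged or replication stalls. ATM, recruited to double-strand breaks, activates CHEK2, and ATR, recruited to single-stranded DNA at stalled forks, activates CHEK1 with the help of the adaptor CLSPN (claspin). CHEK1 and CHEK2 phosphorylate the CDC25 phosphatases, which are then degraded or held in the cytoplasm. CDC25 phosphatases remove the inhibitory phosphates that WEE1 and PKMYT1 place on cyclin-dependent kinases (CDKs), so the balance between them sets when CDK2 and CDK1 become active. Most mature β cells rarely divide, whereas an immortalized β cell line runs this machinery continuously. The files measure the transcripts of these genes and not the activity or the phosphorylation of their products.

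The transcripts of the checkpoint axis were expressed in every library, with between 177 and 6405 counts per gene and sample, and their levels with AZD7762 overlapped those with DMSO for all 10 genes. Over all genes tested, 15.0% had groups that did not overlap, 6.79% higher and 8.25% lower with AZD7762, and nothing is read from the 0 of 10 beside that share. The mean levels of 3 genes were fitted higher and of 7 lower, and the largest fitted difference was a fall of CDC25A by 0.16 on the log2 scale, which did not pass the test. With edgeR's quasi-likelihood test and Benjamini-Hochberg adjustment over the 17649 genes tested, 0 of the 10 had an adjusted p under 0.05, beside 0.708% of all genes tested (125 genes, 63 higher and 62 lower). None of the 10 had an unadjusted p under 0.05, beside 9.68% of all genes, and DESeq2 and limma-voom also called 0 of them. The 95% intervals of the 10 fold changes lay between 0.725 and 1.37, and without PKMYT1, which had the fewest counts, between 0.776 and 1.16. Changes of transcript level within those bounds were not resolved with 3 samples per group.

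The libraries held between 20486391 and 29402440 counts, and levels are given as CPM, the count relative to the library total after scaling by TMM factors (between 0.983 and 1.02). A floor of 3 counts was worth 0.101 to 0.144 CPM, depending on the library. The common biological coefficient of variation was 7.15%. The labels do not state whether the samples of a group came from separate cultures, so p-values measure the spread between these samples, which may be technical. Fewer cells of a kind and less RNA per cell cannot be told apart in bulk samples. β cell markers were expressed in all samples, with INS at 1258 ± 351 CPM (SD, n = 3) with DMSO and 1409 ± 250 with AZD7762, and IAPP at about 19.6 CPM in both groups. INS shares 37.5% of its exon bases with INS-IGF2 on the same strand, so its level is uncertain. Of 10 markers of other cells, 9 were matched, PRSS1 had 0 counts in every library, and PPY and PTPRC, which mark PP cells and leukocytes, had at most 2 and 8 counts. Others were expressed, with SST (δ cells) at 214 ± 12.4 CPM (SD, n = 3) with DMSO, KRT19 (duct) at 26.1 ± 3.06, CPA1 (acinar) at 21.8 ± 0.826 and COL1A1 (fibroblasts) at 12.1 ± 3.20 CPM.

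Promoter sequence was examined because the genes of this axis are known to be transcribed in phases of the cell cycle, through E2F factors before S phase and through the cell cycle genes homology region (CHR) before mitosis. RefSeq promoter windows on GRCh38.p14, from 250 bases before to 50 after each annotated start, were found for 8 of the 10 genes, and none was held for WEE1 and PKMYT1. The letters searched, on both strands, were CHR (TTTGAA or TTCGAA), E2F (TTTGGCGC, TTTCCCGC, TTTCGCGC or TTTGCCGC) and CCAAT. The E2F letters were present in the 1 window each of CDC25A and CLSPN. The CHR letters were present in 1 of 4 windows of CDC25B, 2 of 4 of CDC25C (the same site) and 1 of 2 of ATM. Over all windows, 16.35% held the CHR letters and 3.315% the E2F letters. Among all 27305 genes with a window, 3.99% held the E2F letters, 19.5% the CHR letters and 39.7% CCAAT. The CCAAT letters were found for every member with a window except ATR, and overlapped neither of the other sets in the stretches printed. The stretches below are shown because the CDC25 genes and CLSPN carry these letters close to the start, and PLK1, a kinase described later, carries the CHR letters too. Each is written on the strand of its gene, with the matched letters in capitals, which for CLSPN are the reverse complement of an E2F form. They lie at chr3:48188434-48188485 (minus strand) for CDC25A, chr1:35769956-35770007 (minus strand) for CLSPN, chr20:3796248-3796297 (plus strand) for CDC25B, chr5:138331809-138331858 (minus strand) for CDC25C and chr16:23678836-23678885 (plus strand) for PLK1.
CDC25A: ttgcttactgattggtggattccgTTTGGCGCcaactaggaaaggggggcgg
CLSPN: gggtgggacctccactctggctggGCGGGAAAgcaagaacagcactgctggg
CDC25B: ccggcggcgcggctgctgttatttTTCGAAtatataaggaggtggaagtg
CDC25C: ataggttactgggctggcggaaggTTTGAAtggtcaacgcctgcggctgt
PLK1: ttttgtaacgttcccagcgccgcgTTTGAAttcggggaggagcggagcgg
A match of letters describes the sequence and is not a measurement of binding. CDC25B and CDC25C share the CHR letters but not their fitted direction, at 0.08 and -0.02 on the log2 scale, and neither change passed the test.

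Levels were compared between genes as CPM per kilobase of annotated exon. CDC25B stood highest at 56.9 CPM per kb over the 6 samples, above the level of 96.2% of the genes tested that have a length, and its lowest sample lay above the highest sample of every other member. CDC25A at 15.5, CHEK1 at 14.1 and WEE1 at 12.2 CPM per kb followed, and the ranges of neighbours in that order overlapped. CLSPN at 8.83 CPM per kb stood apart from the genes on either side of it, but per kilobase of the longest transcript it overlapped CHEK2 and CDC25C. CHEK2 at 6.71 and CDC25C at 5.57 CPM per kb overlapped each other. ATM at 2.77, PKMYT1 at 2.03 and ATR at 1.54 CPM per kb came last, each overlapping its neighbour. The strand setting of the authors' counting is not given, so counts of genes that overlap others are uncertain. Of exon bases, 13.4% of CHEK1, 7.52% of ATR and 6.52% of CHEK2 overlap genes on the opposite strand. Among genes described later, 16.8% of CDK2, 12.8% of PLK1, 9.37% of MDC1, 9.24% of CCNA2 and 9.14% of RAD17 do. The share of BORA, also described later, which overlaps DIS3 on the opposite strand, is larger than any of these, so its counts are uncertain too. ATRIP shares 26.7% of its exon bases with TREX1 on the same strand. Annotated exon length includes rare exons, and with the length of the longest transcript the order changed to CDC25B, WEE1, CHEK1, CDC25A, CHEK2, CLSPN, CDC25C, ATM, ATR and PKMYT1. CDC25B was the highest on both scales, at 71.2 CPM per kb of the longest transcript, and ATR and PKMYT1 were the 2 lowest on both, at 5.15 and 4.37 CPM per kb of the longest transcript.

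**Figure D1:**
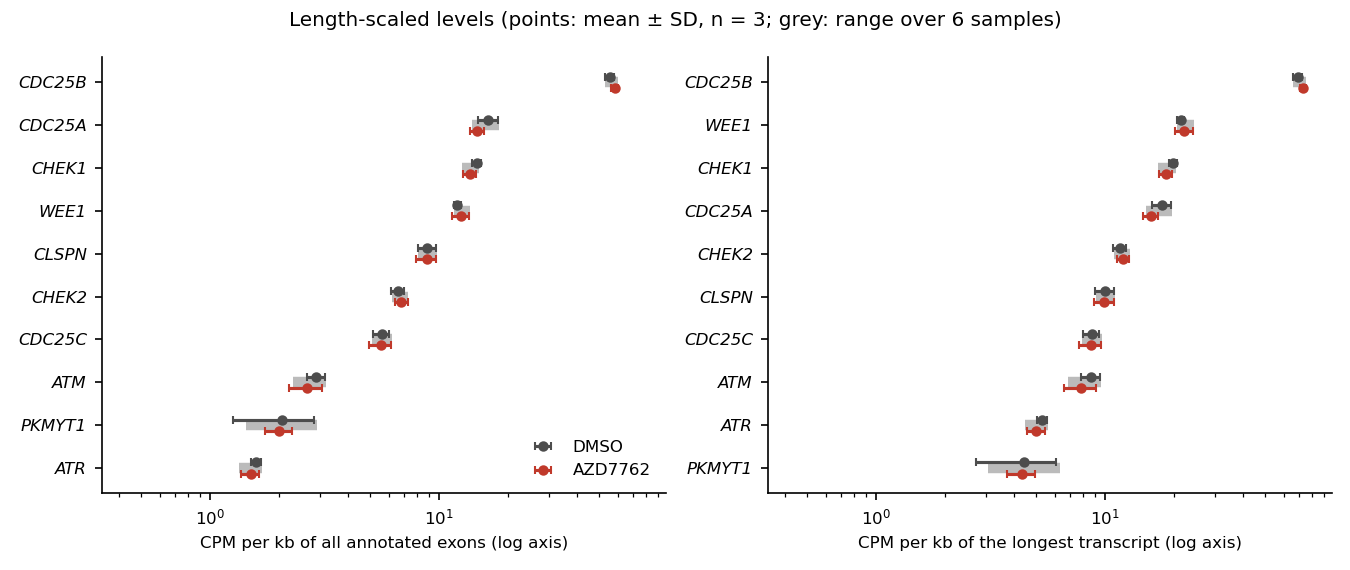
Level of each checkpoint gene per kilobase of all annotated exons (left) and of the longest transcript (right), on log axes. Points and bars are mean ± SD of 3 samples for DMSO (dark grey) and AZD7762 (red), and light grey marks the range over the 6 samples. CDC25B lies apart from the rest on both scales, with 56.9 and 71.2 CPM per kb over the 6 samples.

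CHEK1 and CHEK2 are the effector kinases among the targets of AZD7762. The authors state that the compound is known to target other kinases as well, and their part in these values was not tested. CHEK1 (ENSG00000149554, chr11:125495058-125546150, plus strand, GRCh37), the kinase that restrains CDC25A during replication, was measured at 83.2, 83.7 and 77.5 CPM with DMSO and at 76.5, 80.7 and 70.4 CPM with AZD7762. All 3 samples with AZD7762 lay below DMSO replicates 1 and 2, but the second lay above DMSO replicate 3, so the groups overlapped. CHEK1 averaged 81.5 ± 3.44 CPM (SD, n = 3) and 75.9 ± 5.15 CPM, a log2 fold change of -0.10 (SE 0.0661, 95% interval -0.25 to 0.04, adjusted p = 0.657).

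CHEK2 (ENSG00000183765, chr22:29083731-29138410, minus strand, GRCh37), the effector kinase downstream of ATM, was measured at 29.4, 31.8 and 27.9 CPM with DMSO and at 29.7, 32.9 and 29.3 CPM with AZD7762. In both groups the second replicate was the highest, and the groups overlapped over most of their range. CHEK2 averaged 29.7 ± 1.95 CPM (SD, n = 3) and 30.7 ± 1.99 CPM, with a log2 fold change of 0.04 (SE 0.0780, 95% interval -0.13 to 0.21, adjusted p = 0.901). CHEK2 has partial pseudogene copies elsewhere in the genome, and how reads shared with them were counted is not given in the sources used here. CHEK1 and CHEK2 lay in opposite fitted directions, neither of which passed the test.

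**Figure D2:**
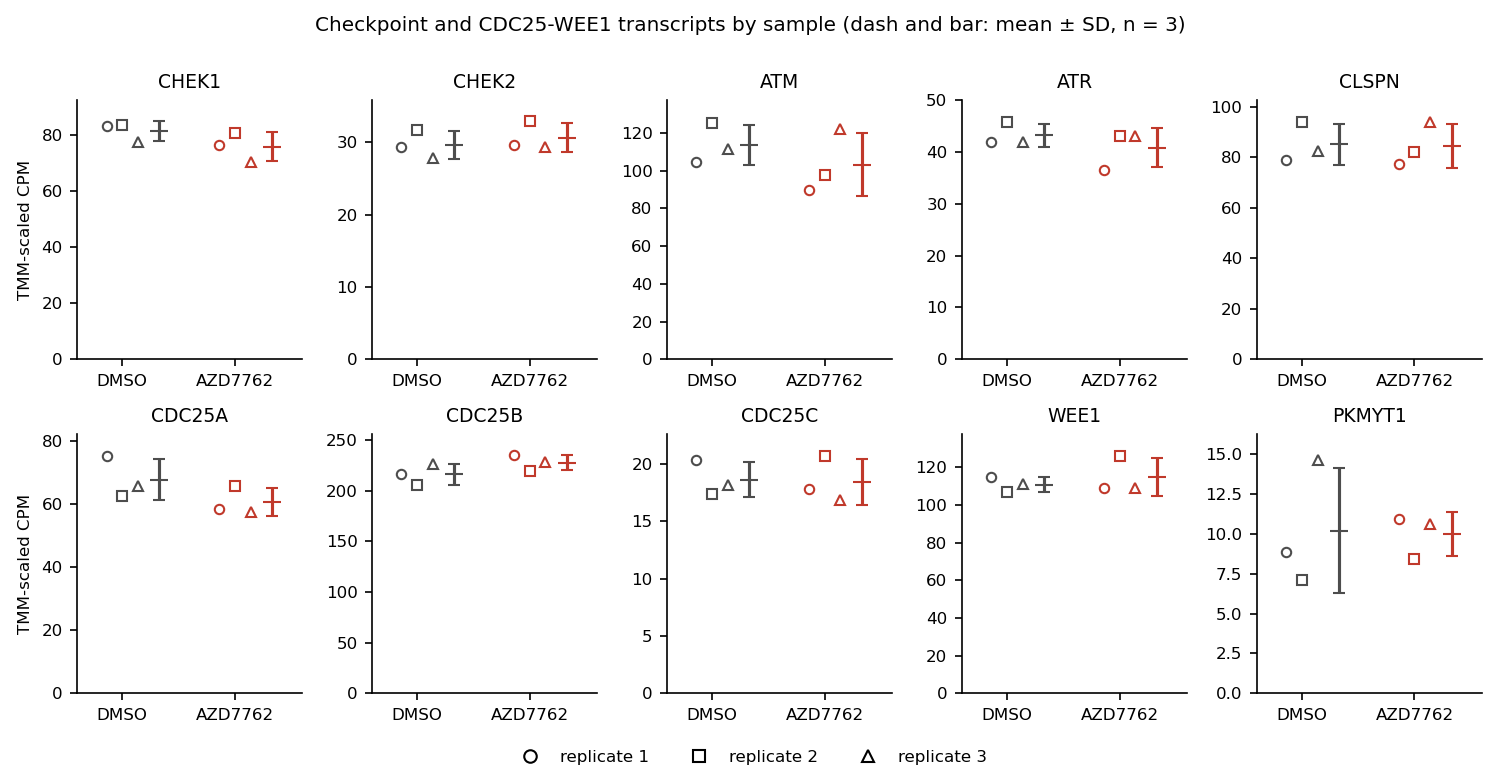
TMM-scaled CPM of the 10 checkpoint genes in each sample, with a vertical axis from 0 in every panel. Circles, squares and triangles are replicates 1, 2 and 3, and dashes with bars are mean ± SD of 3 samples per group. In every panel the 3 AZD7762 samples overlap the 3 DMSO samples, and for PKMYT1 DMSO replicate 3 stands at 14.6 CPM above the other 5 samples.

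The upstream kinases ATM and ATR had wider intervals than CHEK1. ATM (ENSG00000149311, chr11:108093771-108239829, plus strand, GRCh37), the sensor kinase of double-strand breaks, was measured at 104, 125 and 112 CPM with DMSO and at 89.8, 97.5 and 122 CPM with AZD7762. AZD7762 replicates 1 and 2 lay below every DMSO sample, whereas replicate 3 lay above 2 of the 3. ATM averaged 114 ± 10.6 CPM (SD, n = 3) and 103 ± 16.8 CPM, with a log2 fold change of -0.14 (SE 0.103, 95% interval -0.37 to 0.08, adjusted p = 0.704). With each sample left out in turn the fitted value ranged from -0.28 (without AZD7762 replicate 3) to -0.060 (without AZD7762 replicate 1), and ATM was called in none of these fits.

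ATR (ENSG00000175054, chr3:142167849-142297575, minus strand, GRCh37), the sensor kinase of stalled forks, was measured at 42.0, 45.8 and 41.9 CPM with DMSO and at 36.4, 43.0 and 43.0 CPM with AZD7762. Only AZD7762 replicate 1 lay below the DMSO range. ATR averaged 43.2 ± 2.27 CPM (SD, n = 3) and 40.8 ± 3.79 CPM, with a log2 fold change of -0.08 (SE 0.0788, 95% interval -0.26 to 0.09, adjusted p = 0.787). Both kinases were fitted lower, and the ratio of ATM to ATR per kilobase of exon was 1.83 ± 0.0878 with DMSO and 1.75 ± 0.199 with AZD7762, with overlapping groups.

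CLSPN (chr1:36185819-36235579, minus strand, GRCh37), the adaptor that presents CHEK1 to ATR and whose promoter stretch with E2F letters is printed above, was measured at 78.8, 94.1 and 82.3 CPM with DMSO and at 77.2, 81.9 and 94.0 CPM with AZD7762. The highest samples of the groups, DMSO replicate 2 and AZD7762 replicate 3, were nearly equal. CLSPN averaged 85.1 ± 8.03 CPM (SD, n = 3) and 84.4 ± 8.64 CPM, with a log2 fold change of -0.01 (SE 0.0849, 95% interval -0.20 to 0.17, adjusted p = 0.978).

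The CDC25 phosphatases are among the substrates through which CHEK1 and CHEK2 reach the cell cycle. CDC25A (chr3:48198636-48229907, minus strand, GRCh37), which activates CDK2 at the entry to S phase, was measured at 75.2, 62.6 and 65.8 CPM with DMSO and at 58.6, 65.7 and 57.7 CPM with AZD7762. DMSO replicate 1 was the highest sample, AZD7762 replicates 1 and 3 lay below the whole DMSO range, and AZD7762 replicate 2 lay within it. CDC25A averaged 67.8 ± 6.59 CPM (SD, n = 3) and 60.7 ± 4.41 CPM, with a log2 fold change of -0.16 (SE 0.0797, 95% interval -0.34 to 0.01). Its p of 0.0630 was the smallest among the 10 genes and its adjusted p was 0.548.

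CDC25B (chr20:3767419-3786768, plus strand, GRCh37), which starts the activation of CDK1 at the centrosome, was measured at 217, 206 and 226 CPM with DMSO and at 235, 220 and 228 CPM with AZD7762. AZD7762 replicates 1 and 3 lay above every DMSO sample, and replicate 2 lay inside the DMSO range. CDC25B averaged 216 ± 10.1 CPM (SD, n = 3) and 228 ± 7.64 CPM, with a log2 fold change of 0.08 (SE 0.0594, 95% interval -0.05 to 0.20, adjusted p = 0.735). This was the narrowest interval among the 10 genes.

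CDC25C (chr5:137620958-137674044, minus strand, GRCh37), which drives CDK1 at the entry to mitosis, was measured at 20.3, 17.3 and 18.2 CPM with DMSO and at 17.8, 20.7 and 16.9 CPM with AZD7762. The highest and the lowest of the 6 samples both belonged to the AZD7762 group. CDC25C averaged 18.6 ± 1.54 CPM (SD, n = 3) and 18.4 ± 2.00 CPM, with a log2 fold change of -0.02 (SE 0.0976, 95% interval -0.23 to 0.20, adjusted p = 0.977). Of its exon bases 8.80% overlap FAM53C on the opposite strand, which leaves those reads uncertain.

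Within each sample the makeup of the CDC25 family was also computed per kilobase of exon. CDC25B held 71.6 ± 1.82% (SD, n = 3) of the summed CDC25 level with DMSO and 74.3 ± 2.13% with AZD7762. CDC25A held 21.1 ± 1.43% and 18.6 ± 1.38%, and CDC25C held 7.23 ± 0.389% and 7.06 ± 0.759%. The groups overlapped for all 3 shares, with AZD7762 replicate 2 inside the DMSO range for CDC25A and CDC25B, and no test was made of them.

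The kinases that oppose CDC25 are WEE1 and PKMYT1. WEE1 (chr11:9595217-9615004, plus strand, GRCh37), the nuclear kinase that phosphorylates CDK1 and CDK2, was measured at 115, 107 and 111 CPM with DMSO and at 109, 126 and 109 CPM with AZD7762. AZD7762 replicate 2 was the highest of the 6 samples, and the other 2 lay inside the DMSO range. WEE1 averaged 111 ± 3.93 CPM (SD, n = 3) and 115 ± 10.0 CPM, with a log2 fold change of 0.05 (SE 0.0692, 95% interval -0.10 to 0.20, adjusted p = 0.871). Without AZD7762 replicate 2 the fitted value was -0.032, on the other side of 0.

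PKMYT1 (chr16:3018025-3030480, minus strand, GRCh37), the membrane-bound kinase that acts on CDK1, was measured at 8.82, 7.13 and 14.6 CPM with DMSO and at 10.9, 8.40 and 10.6 CPM with AZD7762. DMSO replicate 3 was higher than the other 5 samples, and the coefficient of variation was 38.5% with DMSO and 13.7% with AZD7762. PKMYT1 averaged 10.2 ± 3.92 CPM (SD, n = 3) and 9.97 ± 1.37 CPM, with a log2 fold change of -0.00615 (SE 0.210, 95% interval -0.46 to 0.45, adjusted p = 0.996). Without DMSO replicate 3 the fitted value was 0.33 (adjusted p = 0.331), and it also lay above 0 without AZD7762 replicate 2 (0.094), with limma-voom (0.071) and with the replicate block (0.016), so the direction was not settled. The longest PKMYT1 transcript has a GC content of 66.2%, above that of 98.0% of genes. Of its exon bases 31.9% overlap KREMEN2 and PAQR4 on the opposite strand, so those reads cannot be assigned with certainty either. KREMEN2 was measured at 2.73 CPM in DMSO replicate 3 and at 2.54 CPM in AZD7762 replicate 1, its 2 highest samples, and the more abundant PAQR4 was highest in AZD7762 replicate 1 (53.6 CPM, beside 51.8 CPM in DMSO replicate 3). The part of library composition or of overlapping reads in the spread of PKMYT1 was not tested.

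The activating and the inhibitory side were set against each other as the summed CDC25A, CDC25B and CDC25C level over the summed WEE1 and PKMYT1 level per kilobase of exon. The ratio was 5.63, 5.63 and 5.31 with DMSO and 5.70, 5.11 and 5.57 with AZD7762. Its means were 5.52 ± 0.183 and 5.46 ± 0.312 (SD, n = 3), and the groups overlapped. The ratio of CHEK1 to CHEK2 was 2.27, 2.11 and 2.23 with DMSO and 2.07, 1.97 and 1.93 with AZD7762, or 2.21 ± 0.0823 and 1.99 ± 0.0721. Every AZD7762 sample lay below every DMSO sample in this ratio, although neither gene separated the groups by itself. The ratio was given no test, and the share of ratios between genes that separate the groups was not computed. Of single genes tested, 15.0% separated the groups in this way.

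**Figure D3:**
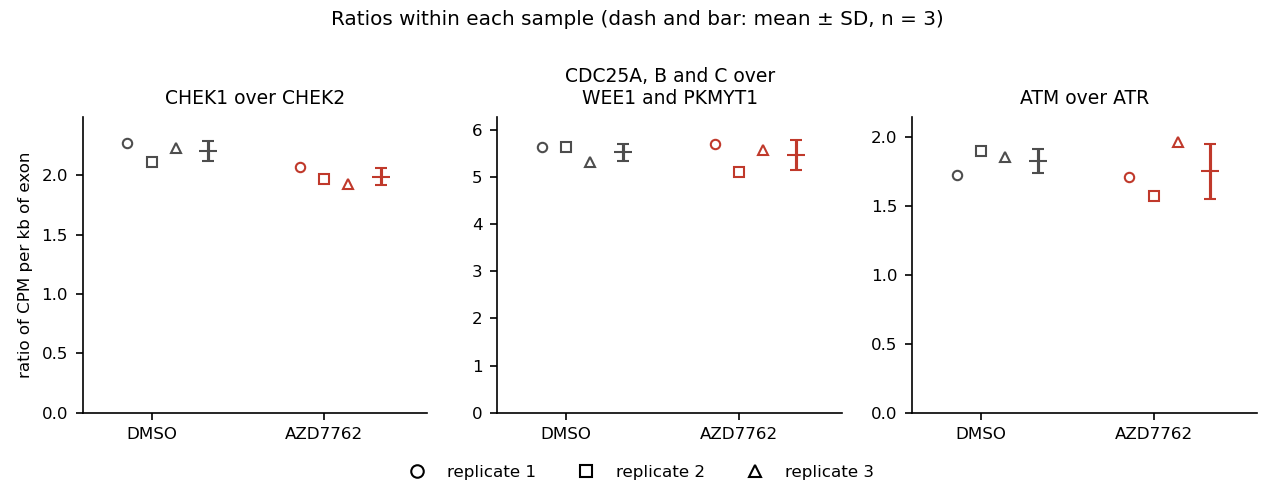
Ratios of levels per kilobase of exon within each sample, for CHEK1 over CHEK2, the summed CDC25 genes over WEE1 and PKMYT1, and ATM over ATR, with axes from 0. Circles, squares and triangles are replicates 1, 2 and 3, and dashes with bars are mean ± SD of 3 samples. The CHEK1 to CHEK2 ratio is 2.21 ± 0.0823 with DMSO and 1.99 ± 0.0721 with AZD7762 without overlap, and the other ratios overlap.

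Set beside the rest of the transcriptome, the median log2 fold change of the 10 genes was -0.014, and over all 17649 genes it was 0.0076. The median size of the change, without its sign, was 0.062 over the members and 0.091 over all genes. The summed level of the members was between 773 and 780 CPM with DMSO and between 741 and 781 CPM with AZD7762. With the replicate number as a term in the fit, the count of genes called rose to 378 (2.14% of those tested), and the members called were again 0.

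Damage sensors and adaptors upstream of the checkpoint kinases were listed as 16 genes, all tested, of which 0 were called higher and 0 lower by edgeR, 0 by DESeq2 or limma-voom, and 1 had an unadjusted p under 0.05. Their median log2 fold change was -0.038, with 6 above 0 and 10 below. ATRIP, the partner of ATR, averaged 18.6 ± 1.03 CPM (SD, n = 3) with DMSO and 20.0 ± 1.92 CPM with AZD7762 (log2 fold change 0.11, adjusted p = 0.753). TOPBP1, which stimulates ATR, had a log2 fold change of -0.08 (adjusted p = 0.758), and NBN, which brings ATM to breaks, of -0.08 (adjusted p = 0.765). MDC1, the scaffold around breaks, had a log2 fold change of 0.04 (adjusted p = 0.901). RAD17, which loads the 9-1-1 clamp beside ATR, was measured at 62.3, 62.6 and 58.3 CPM with DMSO and at 56.0, 56.6 and 58.1 CPM with AZD7762, without overlap, but its log2 fold change of -0.10 did not pass the test (adjusted p = 0.624). In all, 1 of the 16 genes was higher and 5 were lower without overlap between groups, beside 6.79% and 8.25% of all genes tested. The higher was RAD9A and the others were RAD1, HUS1, TIPIN and RNF168 beside RAD17, all but RAD17 named after their values were seen, and the clamp subunits RAD9A, RAD1 and HUS1 thus stood on different sides.

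CDKs, cyclins and CDK inhibitors, on which CDC25 and WEE1 act, were listed as 11 genes, of which 0 were called in either direction by edgeR, 0 by DESeq2 or limma-voom, and 4 had an unadjusted p under 0.05. Their median log2 fold change was 0.012, and the groups did not overlap for 4 of them, 2 higher and 2 lower with AZD7762. The higher were CCNA2 and CCNB1, described below. The lower were CCNE2 (log2 fold change -0.17, edgeR adjusted p = 0.335) and CDK7 (-0.21, edgeR adjusted p = 0.486), both named after their values were seen. Of CCNE2 exon bases 37.1% overlap genes on the opposite strand, so its counts are uncertain. Over all genes tested, 9.68% had an unadjusted p under 0.05 and 15.0% had groups without overlap. CDK1, the mitotic kinase, averaged 211 ± 11.5 CPM with DMSO and 213 ± 8.13 CPM with AZD7762 (SD, n = 3), and its log2 fold change was 0.01 (95% interval -0.12 to 0.15, adjusted p = 0.970). CDK2, the S phase kinase, averaged 95.8 ± 7.03 and 98.0 ± 5.05 CPM, a log2 fold change of 0.03 (95% interval -0.12 to 0.18, adjusted p = 0.920). Groups overlapped for both kinases. CDKN1A, the CDK inhibitor induced by p53, averaged 25.1 ± 1.21 and 23.2 ± 1.57 CPM (log2 fold change -0.12, adjusted p = 0.685).

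CCNA2, the cyclin of S and G2 phase, was measured at 160, 153 and 147 CPM with DMSO and at 177, 187 and 163 CPM with AZD7762. CCNB1, the mitotic cyclin, was measured at 134, 124 and 122 CPM and at 140, 143 and 136 CPM. Every AZD7762 sample lay above every DMSO sample for both cyclins. Their log2 fold changes were 0.19 (SE 0.0656, adjusted p = 0.339) for CCNA2 and 0.14 (SE 0.0592, adjusted p = 0.465) for CCNB1, and neither passed the test. With the replicate block CCNB1 still did not (adjusted p = 0.135) and CCNA2 passed it (log2 fold change 0.19, adjusted p = 0.0469).

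Regulators of CDC25 and WEE1 were listed as 14 genes, of which 13 were tested, since SFN had at most 5 counts in any library. Of the 13, 1 (AURKA) was called higher and 0 were called lower, beside 0.708% of all genes tested called in either direction. An unadjusted edgeR p under 0.05 was found for 2 of the 13, beside 9.68% of all genes. The groups did not overlap for 2, both higher, beside 6.79% higher and 8.25% lower of all genes. The median log2 fold change of the list was 0.035. AURKA (chr20:54944445-54967393, minus strand, GRCh37), the kinase that activates PLK1 at the entry to mitosis, was measured at 82.4, 75.4 and 75.3 CPM with DMSO and at 99.6, 106 and 95.8 CPM with AZD7762. Every AZD7762 sample lay above every DMSO sample. AURKA averaged 77.7 ± 4.10 CPM (SD, n = 3) and 100.3 ± 4.90 CPM and rose 1.29-fold (log2 fold change 0.37, SE 0.0637, 95% interval 0.23 to 0.51, adjusted p = 0.0153). The call was lost without DMSO replicate 2 (adjusted p = 0.101), without AZD7762 replicate 1 (adjusted p = 0.0833) and without AZD7762 replicate 2 (adjusted p = 0.102), while the log2 fold change stayed between 0.32 and 0.40 when each sample was left out.

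PLK1 (chr16:23688977-23701688, plus strand, GRCh37), the mitotic kinase that activates CDC25C and marks WEE1 for degradation, was measured at 77.0, 68.5 and 78.3 CPM with DMSO and at 90.2, 88.2 and 91.3 CPM with AZD7762. Its groups did not overlap either. PLK1 averaged 74.6 ± 5.28 CPM (SD, n = 3) and 89.9 ± 1.55 CPM, a log2 fold change of 0.27 (SE 0.0644, 95% interval 0.13 to 0.41), which did not pass the test over all genes (adjusted p = 0.108). With the replicate block it passed (log2 fold change 0.27, adjusted p = 0.00988). The PLK1 window with the CHR letters is printed above. The windows of CCNA2 and CCNB1 held neither TTTGAA nor TTCGAA, the only CHR letters searched, so other forms of the CHR are not excluded. Both windows of CDK1 held these letters, and AURKA had no window in the table used.

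BORA, the cofactor through which AURKA acts on PLK1, was among the lowest of these genes, at 9.74 ± 0.472 CPM (SD, n = 3) with DMSO and 9.22 ± 0.236 CPM with AZD7762 (log2 fold change -0.08, adjusted p = 0.845). BTRC, a ligase subunit that degrades CDC25A and WEE1, had a log2 fold change of 0.04 (adjusted p = 0.901). PPM1D, the phosphatase that switches off ATM and CHEK1 signalling, had a log2 fold change of 0.03 (adjusted p = 0.940). The groups overlapped for all 3 genes.

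**Figure D4:**
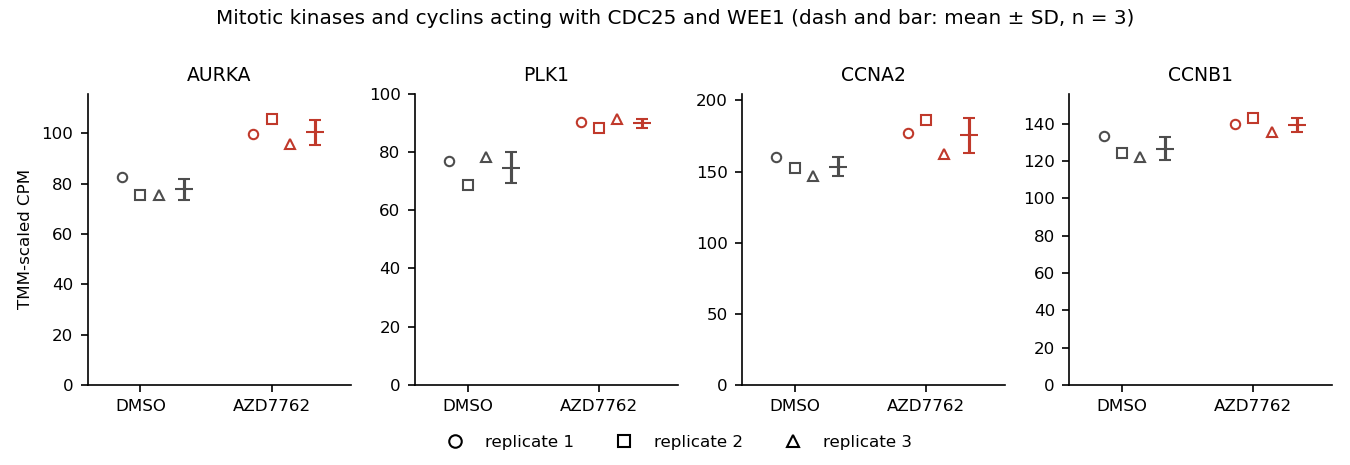
TMM-scaled CPM of AURKA, PLK1, CCNA2 and CCNB1 in each sample, with axes from 0. Circles, squares and triangles are replicates 1, 2 and 3, and dashes with bars are mean ± SD of 3 samples. All 3 AZD7762 samples lie above all 3 DMSO samples in each panel, and only AURKA has an adjusted p under 0.05 (0.0153). Over all genes tested, 6.79% were higher without overlap in this way. Among genes not shown, the groups overlapped for CDK1 and all 6 proliferation markers, and CCNE2 and CDK7 were lower without overlap.

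**Figure D5:**
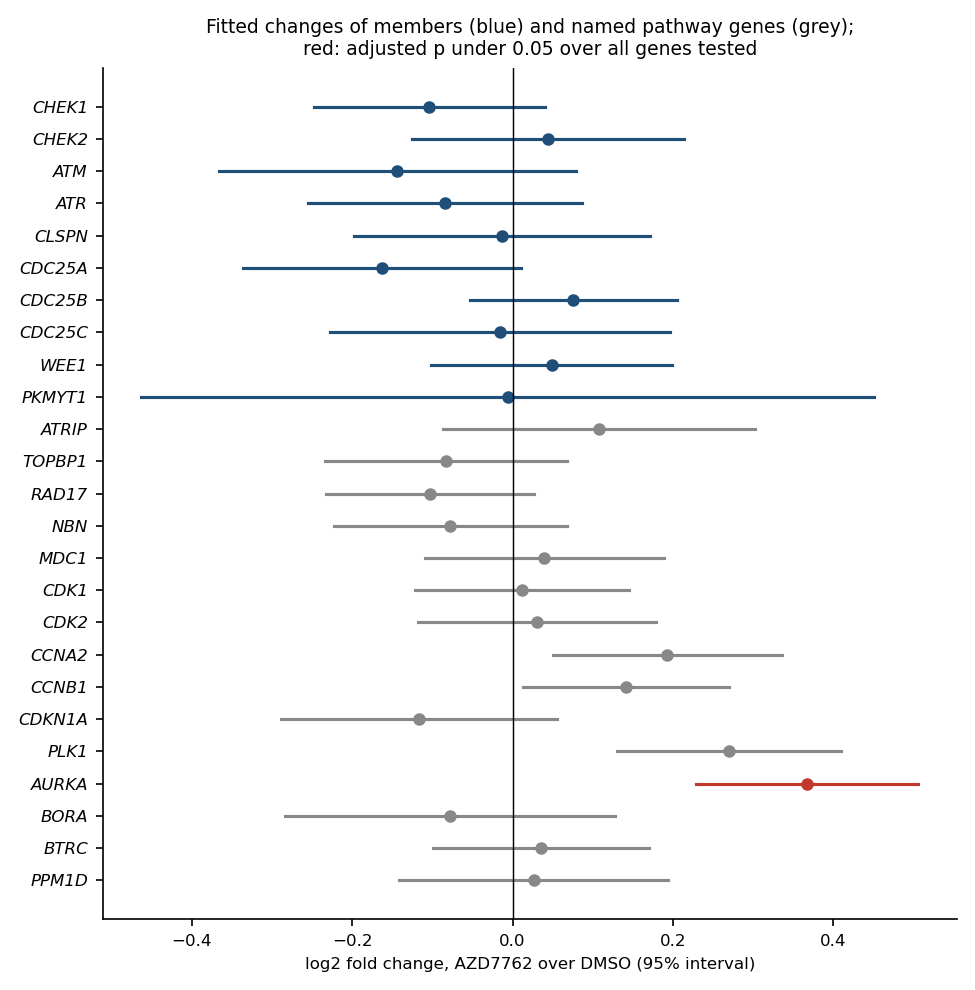
Fitted log2 fold change of AZD7762 over DMSO with its 95% interval for the 10 checkpoint genes (blue) and 15 named pathway genes (grey, or red where the adjusted p over all genes was under 0.05). All 10 blue intervals include 0, and AURKA, at 0.37, is the only gene in red.

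Markers of dividing cells and of other cell types were read beside these values. Of 6 proliferation markers 0 were called by edgeR, DESeq2 or limma-voom and 1 had an unadjusted p under 0.05, their median log2 fold change was 0.081, and their summed level was between 2372 and 2495 CPM with DMSO and between 2396 and 2671 CPM with AZD7762. The β cell markers, 10 genes of which 0 were called and 3 had an unadjusted p under 0.05, summed to between 7641 and 8821 CPM with DMSO and between 8378 and 8907 CPM with AZD7762. Markers of other cells summed to between 259 and 287 CPM with DMSO and between 310 and 336 CPM with AZD7762, without overlap. Most of that sum was SST, which averaged 253 ± 11.5 CPM (SD, n = 3) with AZD7762 (log2 fold change 0.24, adjusted p = 0.160). CPA1 averaged 25.7 ± 1.56 CPM with AZD7762, also without overlap (log2 fold change 0.24, adjusted p = 0.308), and the groups overlapped for KRT19 and COL1A1. Of the 6 tested markers of other cells 0 were called and 2 had an unadjusted p under 0.05, and their median log2 fold change was 0.10. Beside the counts of these 3 marker lists, 0.708% of all genes tested were called and 9.68% had an unadjusted edgeR p under 0.05. Of all genes, 6.79% were higher and 8.25% lower without overlap. With the replicate block SST was called. SST, CPA1, KRT19 and COL1A1 are named after their values were seen. The part of cell makeup in the AURKA, PLK1 and cyclin values was not tested.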

How the data were processed

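Bulk RNA-seq of polyadenylated RNA was read from 6 EndoC-βH1 libraries, grouped by treatment as per the labels. The authors trimmed reads with cutadapt 1.18, aligned them to GRCh37 and counted genes with HTSeq-count, and deposited raw counts without normalization. Which of their library kits, stranded or not, was used for which sample and the annotation release are not given in the sources used here. Of 60671 identifiers, 58646 were matched to a GRCh37 annotation (GENCODE), and identifiers outside it held 0.153% of counts.

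In R 4.3.3, filterByExpr left 17649 genes, and the 2 treatments were compared in edgeR 4.0.16 (TMM scaling, quasi-likelihood test, treatment as the only term, two-sided, Benjamini-Hochberg threshold 0.05). All 10 members passed the filter. Intervals are at 95% and cover the spread between samples. Levels per kilobase used the union of annotated exons. The script was tested on simulated counts. Replicates differed beyond counting noise (chi-square per gene between 4.84 and 9.59). Deviations of samples with the same number in the titles were positively correlated (0.106, 0.214 and 0.325). DMSO replicate 1 correlated most with AZD7762 replicate 2, so the pairing by number did not hold for every sample. A fit with the replicate block is given where it changes a call. Members and lists were chosen with earlier results of these data known, and no p was adjusted over them alone. The pathway genes named are all members, 5 fixed genes of each pathway list, any list gene called and those marked as named after their values were seen. Alternatives were DESeq2 1.42.0, limma-voom (limma 3.58.1), other scaling, filters, lengths and tests, and leaving out each sample. A result on a further marker gene, beside those named, is not reported here.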

Additional observations from a re-analysis of the deposited data

How the results depend on the processing

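The count of members called was 0 under every alternative, and no member passed the test in any of them. Over all genes, the 125 calls became 330 with no filter on low counts, 267 with the likelihood ratio test, 378 with the replicate block, 226 with GC and length trends taken out and 1137 with the block and those trends together. The last 2 settings were chosen after seeing the data. Leaving out 1 sample gave between 77 calls (without AZD7762 replicate 1) and 168 (without DMSO replicate 3). The cause of these moves was not tested. DESeq2 size factors, library totals, a minimum of 10 counts, the DESeq2 Wald test and limma-voom gave between 116 and 175. Among the named pathway genes the replicate block changed the calls of PLK1 and CCNA2 and no other. PLK1 was also called with no filter and with the likelihood ratio test (adjusted p = 0.0323 and 0.0276), and PLK1 and CCNA2 with GC and length trends taken out (0.0119 and 0.0326). CCNB1 was called with the block and those trends together (0.0118). Members with an unadjusted p under 0.05 numbered 3 with the block, 2 with library totals, 2 with no filter and at most 2 when a sample was left out.

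Fitted log2 fold changes near 0 changed sign in some settings, none with a call. With GC and length trends taken out, without and with the block, ATR became 0.0146 and 0.0143, CLSPN 0.0720 and 0.0723, CDC25C 0.0222 and 0.0232, TOPBP1 0.00168 and 0.00194, and NBN 0.0312 and 0.0300. PKMYT1 became 0.0709 with limma-voom and 0.0156 with the block. With library totals CDK1 became -0.0231, CDK2 -0.00453 and PPM1D -0.00913. Leaving out 1 sample gave ranges of -0.0164 to 0.0890 for CHEK2, -0.0961 to 0.0593 for CLSPN, -0.111 to 0.0447 for CDC25C, -0.0316 to 0.0860 for WEE1, -0.217 to 0.326 for PKMYT1, -0.0254 to 0.0870 for MDC1, -0.0138 to 0.0454 for CDK1, -0.0223 to 0.0715 for CDK2, -0.00153 to 0.0691 for BTRC and -0.0602 to 0.0724 for PPM1D. CHEK1, ATM, CDC25A and CDC25B kept their direction in every setting, but with GC and length trends taken out CHEK1 moved from -0.104 to -0.0261 and ATM from -0.144 to -0.0412. WEE1 moved from 0.0491 to 0.141 (edgeR adjusted p = 0.264), and with the block as well its adjusted p was 0.117. The fewest counts behind a member's value were the 177 of PKMYT1.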
